A study of Mus musculus with 44 samples.

Results

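The genes described here encode the subunits of the 5 complexes of oxidative phosphorylation, and their transcript levels were followed through every cell population of a mouse lineage-tracing study. Members were taken by gene symbol alone, with no measured value: the symbols of complex I (mt-Nd and Ndufa, b, c, s or v with a number), complex II (Sdha to Sdhd), complex III (mt-Cytb and Uqcr), complex IV (mt-Co and Cox4 to Cox8) and complex V (mt-Atp and Atp5), leaving out 1 symbol that ends in "-ps". This gave 97 of the 32287 genes in the expression files. The mitochondrial genome encodes 13 of them, which are all of its protein-coding genes, and nuclear chromosomes encode the other 84. Complex I has 42 members (7 mitochondrial), complex II has 4 (all nuclear), complex III has 9 (1 mitochondrial), complex IV has 23 (3 mitochondrial) and complex V has 19 (2 mitochondrial). Ndufa4, Ndufa4l2 and Cox7a2l were counted with complex IV.

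Complexes I to IV form the electron transport chain of the inner mitochondrial membrane. They pass electrons from NADH and succinate to oxygen and, apart from complex II, pump protons. Complex V, the ATP synthase, uses the proton gradient to make ATP. The core catalytic subunits are split between both genomes, and several nuclear subunits of complex IV exist as alternative isoforms whose expression is restricted to tissues such as heart, muscle, lung or testis.

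Cells were marked by 2 colours. Morulae that carry an EF1a-driven mCherry transgene on PiggyBac (labelled CD1/G4; mCherry+ males mated to CD-1 females) were aggregated with embryonic stem cells of the male G4 line that express EGFP from a CAG promoter at Rosa26, a line grown from 1 clone. The stem cells gave GFP+ embryonic cells and the morulae gave mCherry+ extraembryonic cells, so all groups came from aggregated embryos, and origin changes together with reporter, strain background and, in part, sex. At embryonic day 6.5 (E6.5) the groups were GFP+ epiblast (Epi), mCherry+ distal extraembryonic endoderm (exEndo1) and mCherry+ proximal extraembryonic endoderm (exEndo2), dissected from single embryos, with 4 libraries each. At E9.5 small numbers of EPCAM+ cells were sorted from tissue pooled over embryos: embryonic midgut and hindgut (emMidgut, emHindgut; GFP+ cells that also hold a low mCherry signal), extraembryonic midgut and hindgut (exMidgut, exHindgut; mCherry+) and mCherry+ yolk sac endoderm (YsEndo), with 4 libraries each. At E13.5 EPCAM+ cells of small intestine and colon were sorted from single embryos, with 3 libraries each: emSI and emColon were GFP+ and wild type, and exSI and exColon were mCherry+ and Trp53 knockout through Cas9 in the zygote. Every E6.5 and E9.5 group was wild type. At E13.5, origin and genotype therefore cannot be told apart, and between E6.5 and E9.5 the isolation method changed with the stage. Between E9.5 and E13.5 the embryonic sort also changed, from GFP+ cells with a low mCherry signal, pooled over embryos, to GFP+ cells of single embryos. Below, emGut and exGut stand for the 8 midgut and hindgut libraries of 1 origin at E9.5, and emE13 and exE13 for the 6 E13.5 libraries of 1 origin.

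The 44 libraries held 3.53 to 12.04 Gb of aligned sequence each (median 6.8, as recovered from the coverage and FPKM columns) and 10382 to 13596 genes above 1 TPM, the transcript level per length scaled to the same total in every library. Summed epiblast markers reached 2573 to 4263 TPM in Epi and 368 to 524.6 TPM in exEndo1. Extraembryonic endoderm markers summed to 52540–60580 TPM in YsEndo, to 1400–13780 TPM in exGut and to 6.323–1545 TPM in emGut, and all 8 gut endoderm markers were above 1 TPM in the E9.5 gut groups. Trp53 transcripts lay between 33.42 and 166.7 TPM in exSI and exColon and between 151.3 and 244.6 TPM in emSI and emColon, so the ranges overlapped and the transcript level alone does not check the knockout label. Summed mesenchyme markers were higher in embryonic than in extraembryonic gut libraries. They reached 111.7–184.9 against 28.54–61.07 TPM in midgut and 57.33–91.5 against 23.09–50.13 TPM in hindgut. In midgut the sum was mostly Vim (means 133.4 TPM in emMidgut and 26.7 TPM in exMidgut). Col1a1 and Prrx1 were also higher in emMidgut. Col1a2 (3.212 against 2.648 TPM), Pdgfra (4.089 against 2.785 TPM), Col3a1 and Twist1 were higher in exMidgut. In bulk RNA, fewer cells of a type and less RNA per cell cannot be told apart. The Y-linked Eif2s3y was listed at 0 in 15 of the 18 GFP+ libraries (highest 5.711 TPM), although their line is described as male. Nothing in the labels ties replicates to separate experiments, so p-values measure the spread between these samples.

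Promoters of 4 members are printed because the comparisons turn on them: Cox6b2, which was higher in gut cells of extraembryonic origin at E9.5 but not at E13.5, its ubiquitous counterpart Cox6b1, the X-linked Cox7b, and Sdhd. Each is the 300 bases from 250 before to 50 after the gene start in RefSeq GRCm38.p6, 5′ to 3′ on the strand of the gene, at chr7:4753045-4753344 (minus strand), chr7:30626065-30626364 (minus), chrX:106015450-106015749 (plus) and chr9:50603800-50604099 (minus). Capitals mark a match to the NRF1 motif (GCGCA, any base, then GCGC) or the YY1 motif (GCCAT, any base, then TTG), searched on both strands.
Cox6b2: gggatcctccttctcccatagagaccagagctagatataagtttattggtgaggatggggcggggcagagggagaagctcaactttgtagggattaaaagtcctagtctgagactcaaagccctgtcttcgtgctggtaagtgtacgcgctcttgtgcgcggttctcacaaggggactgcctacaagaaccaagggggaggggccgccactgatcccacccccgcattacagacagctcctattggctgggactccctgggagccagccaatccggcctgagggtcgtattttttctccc
Cox6b1: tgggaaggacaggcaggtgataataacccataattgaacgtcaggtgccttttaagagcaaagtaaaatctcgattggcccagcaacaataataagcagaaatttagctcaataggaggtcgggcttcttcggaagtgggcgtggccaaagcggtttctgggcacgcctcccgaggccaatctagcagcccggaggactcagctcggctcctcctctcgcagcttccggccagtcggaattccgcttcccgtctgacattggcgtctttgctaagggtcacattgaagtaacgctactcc
Cox7b: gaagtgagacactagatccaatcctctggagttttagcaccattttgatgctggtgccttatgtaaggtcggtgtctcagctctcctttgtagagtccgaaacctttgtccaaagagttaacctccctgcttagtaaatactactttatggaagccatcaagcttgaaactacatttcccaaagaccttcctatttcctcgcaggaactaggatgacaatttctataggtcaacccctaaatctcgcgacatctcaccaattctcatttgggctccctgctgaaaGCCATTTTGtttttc
Sdhd: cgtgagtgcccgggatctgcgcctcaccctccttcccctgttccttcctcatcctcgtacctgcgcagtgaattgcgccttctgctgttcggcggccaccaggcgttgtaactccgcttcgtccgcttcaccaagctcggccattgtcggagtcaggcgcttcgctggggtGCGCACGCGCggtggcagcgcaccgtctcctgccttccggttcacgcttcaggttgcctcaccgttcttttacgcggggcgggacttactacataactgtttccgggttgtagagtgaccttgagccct

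The Sdhd window was richest in G and C of the 4 (62%, 29 CpG) and held an NRF1 match that starts 79 bases before the gene start (−79). The Cox7b window was the poorest (43.3%, 5 CpG) and held a YY1 match starting 36 bases after the gene start. Neither motif was found in the windows of Cox6b2 (55.7% GC, 10 CpG) and Cox6b1 (53% GC, 17 CpG). Of 67 nuclear members with a promoter entry, 17 held the NRF1 motif (25.4%), against 1402 of 27025 genes (5.19%). The YY1 motif occurred in 10 of 67 members (14.9%) and in 784 of 27025 genes (2.9%). Ndufs6 held both. These are matches of letters and say nothing of binding in these cells.

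Levels of the subunits were high in all populations. Averaged over the 44 libraries, the most abundant members of each complex were mt-Nd1 (6421 TPM) in complex I, Sdhd (512.8 TPM) in complex II, mt-Cytb (4295 TPM) in complex III, mt-Co1 (4107 TPM) in complex IV and mt-Atp6 (5730 TPM) in complex V. Among nuclear members outside complex II, Atp5md (1913 TPM), Cox7c (1747 TPM), Ndufa7 (1064 TPM) and Uqcr11 (1026 TPM) led their complexes. The tissue-restricted isoforms Cox6a2, Cox7b2, Cox8b and Cox8c stayed below 1 TPM on average in every group and were not tested. For the other 93 members the highest group mean was a median of 2.079 times the lowest. The ratio was above 2 for 54 members and above 4 for 8, and it was smallest for Ndufb3, an accessory subunit of complex I, at 1.381. Most members had their lowest group mean in Epi (21), emMidgut (20) or exMidgut (17), and the groups that most often held the highest were exSI (23), YsEndo (19) and exEndo2 (13).

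Summed over the 84 nuclear members, TPM was lowest in the E9.5 midgut, and the highest means were those of exSI, emSI, emColon and YsEndo. The means were 36280 ± 1515 in emMidgut and 36640 ± 1984 in exMidgut (SD, n = 4), and both ranges overlapped with that of Epi (39560 ± 2020). The hindgut groups reached 40310 ± 2333 (emHindgut) and 41160 ± 520.6 (exHindgut). E6.5 endoderm lay above all of these, at 47080 ± 1777 in exEndo1 and 52070 ± 2345 in exEndo2, and YsEndo at 54350 ± 2007. At E13.5 the means were 55220 ± 1388 in emSI, 58990 ± 9338 in exSI, 54510 ± 1835 in emColon and 50510 ± 3729 in exColon (n = 3). In exSI the libraries held 53550, 53640 and 69770 TPM, so its mean rests on 1 library. The 13 mitochondrial transcripts summed to group means from 29420 TPM (emSI) to 46730 TPM (exEndo1) and varied more between replicates in several groups, with ranges of 22630–54550 TPM in Epi, 35340–64870 in exEndo1 and 29460–48120 in YsEndo. Libraries were primed on poly(A).

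**Figure D1:**
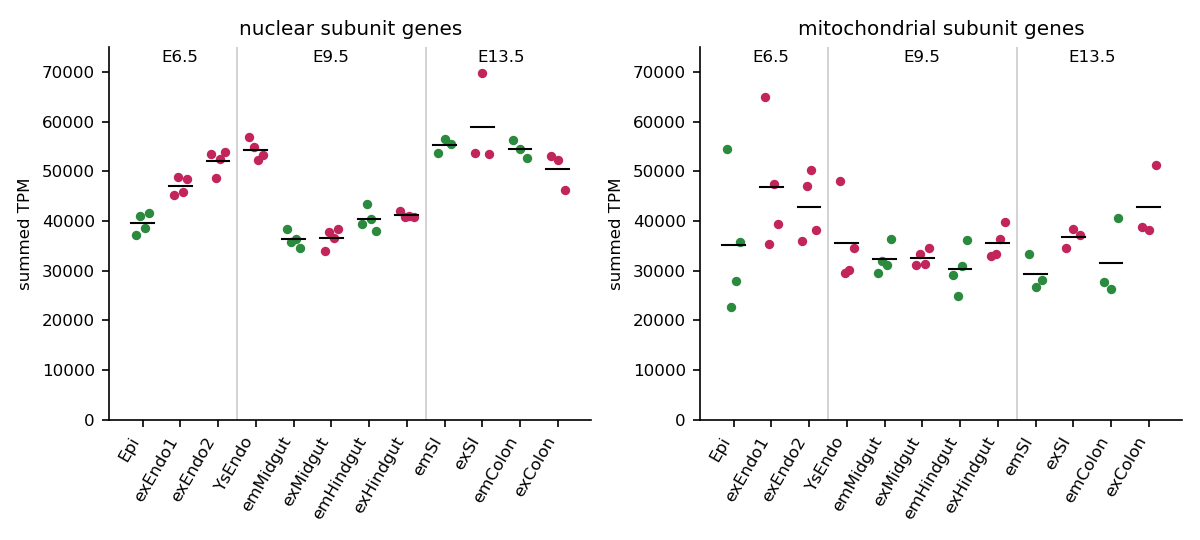
Summed TPM of the 84 nuclear members (left panel) and the 13 mitochondrial members (right panel) in each library of the 12 groups, with GFP+ libraries in green, mCherry+ libraries in crimson and a black bar at each group mean. The nuclear sum is lowest in emMidgut and exMidgut (means 36280 and 36640 TPM) and higher in YsEndo (54350 TPM), while mitochondrial sums of the same group spread widely, from 22630 to 54550 TPM in Epi.

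At E6.5, exEndo1 held more transcript of many subunits than Epi. Of the 97 members, 31 were higher and 8 lower (limma on log2(TPM + 1), Benjamini-Hochberg adjusted p under 0.05 over all genes tested; all log2 differences below are on that scale), which is 32% and 8.25% of the members. Of the 12057 genes tested, 35.4% were higher and 27.5% lower, 62.9% in either direction, so the share of members that rose was near the background. The members' median difference was 0.22 on the log2 scale, against 0.092 over all genes tested. Rescaled by the median ratio of libraries, which puts the median of all genes at −0.049, 20 members were higher and 10 lower (all genes 31% and 32.9%). The nuclear sum was 1.19 ± 0.076 times that of Epi in TPM and 1.08 times after rescaling.

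Complex I, the largest, gave the most calls by number, with 15 of its 35 nuclear members higher and 1 lower. Of all genes tested 35.4% were higher and 27.5% lower. Complex III had 3 of 8 higher, complex IV 6 higher and 2 lower of 15 tested, and complex V 5 higher and 5 lower of 17. All 13 mitochondrial transcripts were higher on average, but the 1 that passed was mt-Co3 (4838 ± 1530 against 3199 ± 895.8 TPM, log2 difference 0.59, SE 0.231, adjusted p = 0.0431; 0.43 and adjusted p = 0.15 after rescaling). Uqcrq, a small subunit of complex III, stood at 1047, 1175, 1109 and 1382 TPM in exEndo1 and at 451.2, 559.5, 479.4 and 428.3 TPM in Epi. The groups lay far apart, and the log2 difference was 1.29 (SE 0.125, adjusted p = 4.73e-06).

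Sdhd, which anchors complex II in the membrane, was measured at 493.4, 543.1, 541 and 587 TPM in exEndo1 and at 280.8, 231.1, 241.7 and 196.9 TPM in Epi. No library of either group entered the range of the other (log2 difference 1.19, SE 0.124, adjusted p = 8.36e-06). Cox7a1, known as the heart and muscle isoform of its complex IV subunit, was at 42.34, 47.71, 49.66 and 59.88 TPM in exEndo1 and 17.04, 18.47, 17.18 and 14.93 TPM in Epi. Again every exEndo1 library was the higher (log2 difference 1.5, SE 0.143, adjusted p = 4.15e-06). Ndufb11, an X-linked accessory subunit of complex I, was measured at 344.2, 336.1, 307 and 320.4 TPM in exEndo1 and at 99.83, 149.7, 142 and 196.5 TPM in Epi. These groups were also separate (1.19, adjusted p = 0.000121). The members lower in exEndo1 included Cox6b2 (−1.23, adjusted p = 0.00445), Ndufa4l2 (−1.41, adjusted p = 0.00715), the c-ring gene Atp5g2 (−0.555, adjusted p = 0.0135), Ndufa7 (−0.49, adjusted p = 0.0026) and Atp5a1, the alpha subunit of the ATP synthase (−0.41, adjusted p = 0.00441).

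Few members passed between distal and proximal endoderm, although most nuclear members were somewhat lower in distal endoderm. In exEndo1 against exEndo2, 0 members were higher and 7 lower, while 8.38% and 5.48% of the 11414 genes tested passed in these directions and 13.9% in either. The members' median difference was −0.129, against 0.023 over all genes tested. Of 78 nuclear members tested 61 were lower on average, and of 13 mitochondrial members 10 were higher. The nuclear sum was 0.904 ± 0.053 times that of exEndo2. The test was limma without a block, and 25 members had an unadjusted p under 0.05. Same-numbered libraries of these 2 groups deviated together and were taken as pairs, and with that number as a block 8 members passed, the same 7 lower and mt-Nd3 higher (0.65, adjusted p = 0.025). Without the block the 7 were Atp5d (−0.58), Uqcrc1 (−0.50), Cox6a1 (−0.39), Cox5b (−0.35), Ndufa5 (−0.32), Atp5a1 (−0.31) and Cox6b1 (−0.31), with adjusted p from 0.0131 to 0.0463. Cox6a1, a nuclear subunit of complex IV, was at 739.8 ± 45.45 in exEndo1 against 966.6 ± 48.28 TPM in exEndo2. Without the block, its call was lost in 1 of the 8 fits that leave out a library, and that on Atp5d in 6. Without exEndo2 replicate 3, 0 members passed in limma without the block and 17 had an unadjusted p under 0.05. In limma with the block over all libraries, adjusted p was 0.00266 for Atp5d and 0.013 for Cox6a1.

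**Figure D2:**
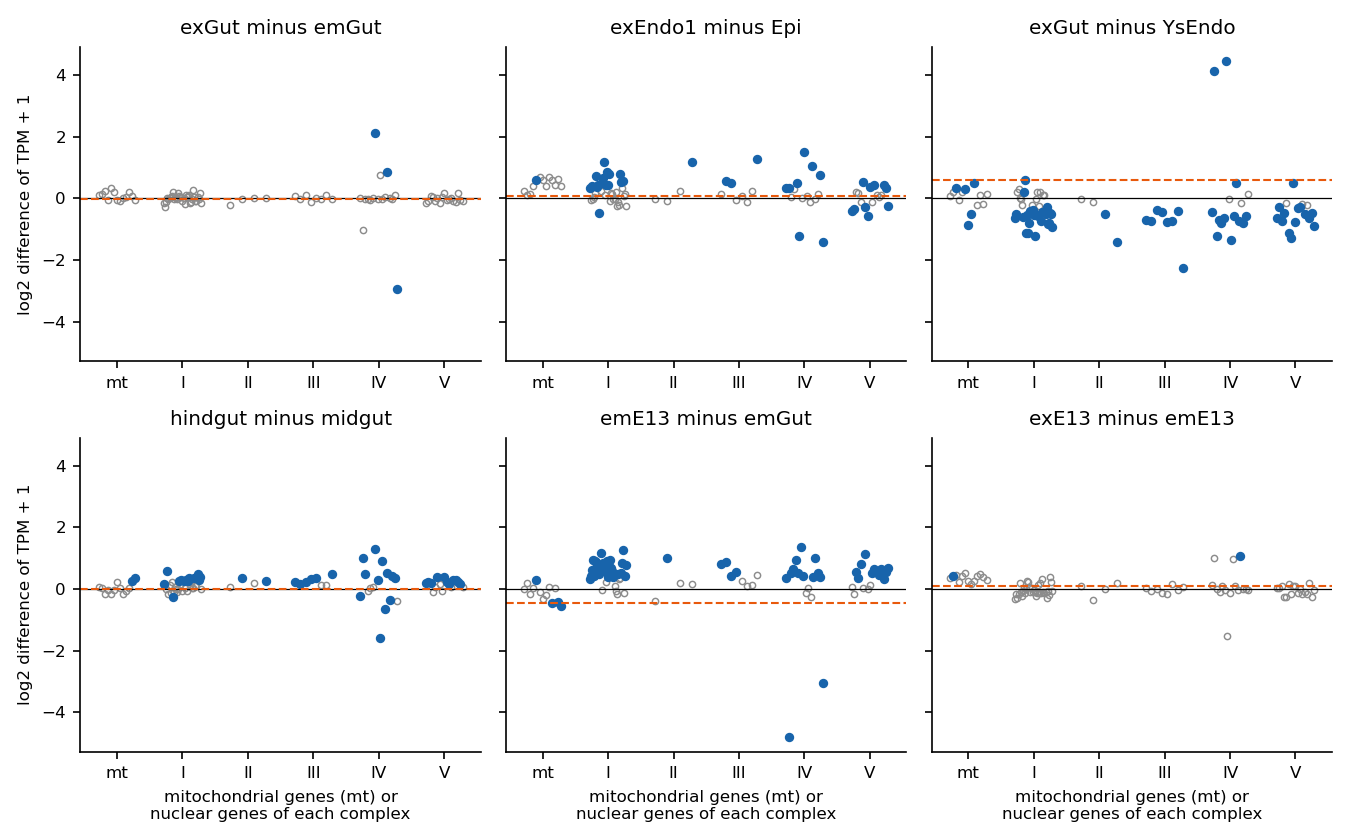
Difference in mean log2(TPM + 1) of each member in 6 comparisons, with mitochondrial and nuclear members of complexes I to V along the x axis; filled blue points passed at adjusted p under 0.05, open grey points did not, and the dashed orange line is the median of all genes tested. In exGut against YsEndo most nuclear members lie below 0 while the line is at 0.594, and in emE13 against emGut most lie above 0 while the line is at −0.462.

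Against YsEndo, the E9.5 tissue of the same extraembryonic origin outside the embryo, exGut cells held less of most subunit transcripts. In exGut, 56 members were lower than in YsEndo and 9 higher, 57.7% and 9.28% of the 97, whereas 15.3% of the 12801 genes tested were lower and 46.9% higher (62.1% in either direction). The members' median was −0.44 and that of all genes was 0.594. Extraembryonic endoderm markers alone summed to at least 52540 TPM in each YsEndo library and to at most 13780 TPM in exGut, and their part in this difference of medians was not tested. With median-ratio rescaling, which brings the median of all genes to 0.066, 84 members were lower and 2 higher, and the members' median was −1.03. On that scale 28.3% of all genes tested were lower and 29.2% higher. The nuclear sum in exGut was 0.716 ± 0.057 times that of YsEndo in TPM and 0.478 times after rescaling.

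Nuclear members of every complex took part: 21 of 35 in complex I were lower, 2 of 4 in complex II, 8 of 8 in complex III, 10 of 16 tested in complex IV and 13 of 17 in complex V. Uqcrq was at 1039, 1137, 1067 and 1134 TPM in YsEndo, at 180.1, 244.9, 204 and 190.1 TPM in exMidgut and at 255.3, 232.5, 308.5 and 223.2 TPM in exHindgut. It had the largest fall among the members that this comparison called (log2 difference −2.26, SE 0.128, adjusted p = 2.98e-09). Sdhd reached 1081, 1142, 1114 and 1135 TPM in YsEndo, against 344.3 to 440.8 TPM in exMidgut and 432.7 to 473.6 TPM in exHindgut. Every YsEndo library held more than any gut library (−1.42, SE 0.0953, adjusted p = 1.7e-08). Atp5g1, which encodes the c-ring peptide of the ATP synthase, was at 351.5 ± 36.23 TPM in exGut (n = 8) and at 867.2 ± 131 TPM in YsEndo (n = 4; −1.29, adjusted p = 2.12e-07). Its paralogue Atp5g2, which encodes the same mature peptide, went the other way, at 438.6 ± 39.24 against 307.5 ± 18.48 TPM (0.51, adjusted p = 0.000241), but was at −0.086 after rescaling (adjusted p = 0.449).

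Ndufb6 of complex I fell by 1.23 on the log2 scale (367.7 ± 52.67 against 859.4 ± 96.45 TPM, adjusted p = 8.37e-07). Ndufa7 was higher in exGut in TPM (1035 ± 72.51 against 684 ± 21.62 TPM, 0.595, adjusted p = 1.06e-05), and its difference was 0 after rescaling. The members that stayed higher on both scales were Cox4i2 and Cox6b2. Cox4i2, an isoform of subunit 4 known from lung and from low oxygen, was listed at 0 in 3 YsEndo libraries and at 0.09391 TPM in the remaining library, against 5.427 to 19.1 TPM in exMidgut and 12.2 to 44.15 TPM in exHindgut (4.13, adjusted p = 7.89e-07). The difference depends on the pseudocount because YsEndo is near 0. In TPM mitochondrial transcripts were mixed, with mt-Nd1 lower (4950 ± 845.7 against 9010 ± 2403 TPM, −0.85, adjusted p = 0.000295), mt-Nd2 lower (−0.51, adjusted p = 0.02) and mt-Nd3 (0.50, adjusted p = 0.0288), mt-Cytb (0.305, adjusted p = 0.018) and mt-Co1 (0.35, adjusted p = 0.0244) higher. After rescaling the latter were at −0.098 (adjusted p = 0.666), −0.291 (adjusted p = 0.0216) and −0.247 (adjusted p = 0.0899), and the mitochondrial sum went from 0.959 to 0.64 times that of YsEndo.

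Proximal extraembryonic endoderm at E6.5 and YsEndo at E9.5 were set side by side as the extraembryonic series outside the gut. In YsEndo 34 members were higher and 17 lower than in exEndo2 (35.1% and 17.5%), while 17.5% of the 11205 genes tested were higher and 49.8% lower (67.3% in either direction). With rescaling, 65 were higher and 2 lower (all genes 31.5% and 27.5%), and the median of all genes moved from −0.408 to 0.012. In FPKM the split was 37 higher and 10 lower (all genes 18.6% and 46.4%). All 4 complex II members were higher. Sdhd went from 611.3, 503.5, 568 and 650 TPM in exEndo2 to at least 1081 TPM in each YsEndo library (0.94, SE 0.0948, adjusted p = 3.47e-06). Atp5o, part of the peripheral stalk of the ATP synthase, was at 931.4 ± 55.28 against 443.5 ± 24.39 TPM (1.07, adjusted p = 5.99e-07). Lower members included mt-Co2, at 2450, 4551, 4539 and 3571 TPM in exEndo2 and 2048, 1147, 1301 and 1511 TPM in YsEndo. The groups were separate (−1.32, SE 0.203, adjusted p = 9.75e-05). Cox6c (1223 ± 91.4 against 2076 ± 146.1 TPM) was lower by 0.76 on the log2 scale (adjusted p = 1.39e-05).

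Between the 2 gut regions at E9.5, pooled over both origins (8 libraries each), hindgut held more of many subunits than midgut. There, 41 members were higher in hindgut and 5 lower, 42.3% and 5.15% of the 97, against 16.4% and 17.6% of the 13473 genes tested and 34% in either direction. They comprised 6 of 8 nuclear members in complex III, 12 of 35 in complex I, 2 of 4 in complex II, 8 of 16 tested in complex IV, 11 of 17 in complex V and 2 of 13 mitochondrial members. The members' median was 0.145 and that of all genes −0.013. Ndufa12 of complex I was at 447.2 ± 34.3 against 297 ± 28.73 TPM (0.59, adjusted p = 1.16e-06). Other members higher in hindgut were Cox5a (0.48), Ndufs8 (0.48), Cox8a (0.43), the c-ring gene Atp5g3 (0.39) and Sdhb (0.36). Of the mitochondrial members, mt-Nd6 (910.6 ± 105.5 against 710.3 ± 63.6 TPM) and mt-Nd5 (802 ± 94.65 against 675.7 ± 69.73 TPM) were higher, by 0.35 (adjusted p = 0.000727) and 0.25 (adjusted p = 0.0193).

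The isoforms of subunit 7a of complex IV moved in opposite directions along the gut. Cox7a2, the form found in most tissues, ranged from 530.8 to 781.1 TPM in the 8 midgut libraries and from 994.3 to 1381 TPM in the 8 hindgut libraries. The regions did not overlap (log2 difference 0.92, SE 0.0777, adjusted p = 6.2e-09). Cox7a1 was at 18.68, 23.6, 44.22 and 18.33 TPM in emMidgut and 47.5, 29.22, 38.08 and 29.28 TPM in exMidgut. In hindgut it was at 6.772, 10.47, 4.559 and 4.141 TPM in embryonic and 13.14, 16.6, 13.88 and 11.42 TPM in extraembryonic libraries. Every hindgut library was below every midgut library (−1.58, SE 0.22, adjusted p = 7.67e-06). Cox7a2l, a related protein that joins complexes III and IV, was also lower in hindgut (282.2 ± 44.74 against 438.7 ± 58.13 TPM, −0.64, adjusted p = 2.48e-05). Markers of muscle, the tissue Cox7a1 is best known from, summed to 101–117.8 TPM in emMidgut and 59.96–86.44 TPM in emHindgut, and to 26.4–36.75 and 31.03–47.36 TPM in the extraembryonic counterparts. Their part in the Cox7a1 difference was not tested.

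Within the E9.5 gut, 3 subunits differed by origin. In exGut against emGut, 2 members were higher and 1 lower, while 1.63% of the 13473 genes tested were higher and 1.98% lower (3.61% in either direction), and 12 members had an unadjusted p under 0.05. With the region as a covariate 5 members were higher and 2 lower, among 4.3% and 5.88% of all genes. That fit added mt-Co3 (0.32, adjusted p = 0.00709), mt-Cytb (0.22, adjusted p = 0.0413) and Cox7a1 (0.78, adjusted p = 0.0272) as higher and Ndufa10 of complex I (−0.27, adjusted p = 0.048) as lower. The nuclear sums had a ratio of 1.02 ± 0.1 and the members' median difference was 0.008. By region, exMidgut against emMidgut called 2 higher and 1 lower (1.62% and 1.87% of the 12432 genes tested, 3.49% in either direction, with 8 members under 0.05 unadjusted), and exHindgut against emHindgut 3 higher and 1 lower (2.26% and 3.08% of the 12318 genes tested, 5.33% in either direction, with 18 under 0.05 unadjusted). Cox7b, Cox6b2 and Ndufa4l2 were called in all 3 comparisons. The additional member in hindgut was mt-Cytb (4519 against 3521 TPM, 0.37, adjusted p = 0.0416). With the replicate number as a block, exHindgut against emHindgut called 7 higher and 2 lower, among 2.46% and 3.02% of all genes. All 13 mitochondrial members were higher on average in exHindgut than in emHindgut, with 7 under 0.05 unadjusted. Their median difference was 0.235, against −0.02 over all genes tested. In midgut 4 of the 13 were higher and 9 lower. In hindgut the calls on Ndufa4l2 and mt-Cytb ended with a pseudocount of 0.1 (adjusted p = 0.0861 and 0.0531), with quantile scaling (0.0554 and 0.122), without the filter (0.161 and 0.196) and without the trended prior (0.109 and 0.277). In midgut the calls on Cox7b and Cox6b2 ended without the filter (0.086 and 0.107) and without the trended prior (0.109 and 0.0681). No member passed the test of the difference between the regions (0 by the limma interaction, 8 members under 0.05 unadjusted, 0.0445% of all genes higher and 0.052% lower, 0.0965% in either direction). In the fits without covariates or blocks the called members were all of complex III or IV.

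Cox6b2, known as the testis isoform of subunit 6b of complex IV, had the larger rise. It was at 78.37, 54.64, 60.67 and 77.23 TPM in exMidgut and 47.11, 9.767, 12.83 and 8.48 TPM in emMidgut. In hindgut it was at 241, 125.3, 116.1 and 246.4 TPM in extraembryonic and 46.42, 33.61, 33.82 and 35.2 TPM in embryonic libraries. All 8 extraembryonic libraries were above all 8 embryonic ones, with log2 differences of 2.07 in midgut (adjusted p = 0.0103), 2.19 in hindgut (SE 0.232, adjusted p = 4.88e-05) and 2.13 pooled (SE 0.402, adjusted p = 0.00336). Within the extraembryonic lineage the level was lower elsewhere, at 3.317 to 4.818 TPM in YsEndo (exGut higher by 4.45, adjusted p = 1.74e-07) and 5.253 to 16.67 TPM in exEndo1 (3.25, adjusted p = 1.66e-05). Epi held 32.33, 30.69, 24.53 and 17.73 TPM. Hindgut held more than midgut over both origins (109.7 against 43.64 TPM, 1.29, adjusted p = 0.000394). The ubiquitous Cox6b1 remained the main form: Cox6b2 made up 13.18% of the summed TPM of the pair in exHindgut (9.644 to 16.78% per library), 5.956% in exMidgut, 3.194% in emHindgut, 1.671% in emMidgut and 0.2278% in YsEndo. At E13.5 it was at 30.17, 39.75 and 1.694 TPM in exSI and at 47.47, 103.8 and 48.55 TPM in emSI, with every exSI library below every emSI library (−2.07, adjusted p = 0.423). In colon it was at 30.31, 62.61 and 15.09 TPM in exColon and at 50.85, 53.86 and 88.92 TPM in emColon, and these overlapped. The difference over both organs, −1.53, did not pass (adjusted p = 0.299).

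Cox7b, a small structural subunit of complex IV (chrX:106015700-106022450, plus strand), was the member that separated the origins at E6.5 and within each gut region or organ at E9.5 and E13.5. In midgut it was at 691.8, 982.5, 596.6 and 616 TPM in extraembryonic and 485.9, 403.2, 401.6 and 353.4 TPM in embryonic libraries. In hindgut it was at 1138, 1201, 1072 and 924.8 TPM in extraembryonic and 536.6, 658.1, 519.9 and 520.5 TPM in embryonic libraries. The groups were separate within each region, with log2 differences of 0.79 (SE 0.15, adjusted p = 0.00833) and 0.955 (SE 0.101, adjusted p = 4.41e-05). Across regions they overlapped, with exMidgut down to 596.6 TPM and emHindgut up to 658.1 TPM. At E6.5 exEndo1 held 1061, 1194, 2184 and 2300 TPM against 729.7, 730.4, 676.5 and 965.8 TPM in Epi. All exEndo1 libraries were the higher (1.05, SE 0.246, adjusted p = 0.00307). At E13.5 it was at 1238, 1857 and 1283 TPM in exSI and 595.8, 631.9 and 522.4 TPM in emSI, and at 1306, 1380 and 965.8 TPM in exColon and 713.5, 665.4 and 606.3 TPM in emColon. No library crossed over in either organ (pooled 1.08, SE 0.139, adjusted p = 0.000282; exSI 1.30, adjusted p = 0.00405; exColon 0.86, adjusted p = 0.151). The mCherry+ groups without a GFP+ match in their tissue were also high, at 1219, 1046, 2057 and 2297 TPM in exEndo2 and 1819, 1687, 1420 and 1035 TPM in YsEndo.

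Because Cox7b is X-linked and the mCherry+ embryos can be of either sex, X and Y transcripts were read beside it. Xist was at most 1.669 TPM in GFP+ libraries. In mCherry+ libraries it ranged from 1.432 to 490.1 TPM at E6.5 and from 14.42 to 112.6 TPM at E9.5, and was at most 1.373 TPM at E13.5. The Y-linked Eif2s3y, at 0 in most GFP+ libraries, ranged in mCherry+ libraries from 0 to 63.96 TPM at E6.5, from 0 to 87.62 TPM at E9.5 and from 40.51 to 118.8 TPM at E13.5. Sex chromosome transcripts thus also differed between the origins, and their part in the Cox7b difference was not tested. In exEndo1, the libraries with Xist at 231.1 and 123.1 TPM held 1061 and 2184 TPM of Cox7b, and those with Xist at 1.509 and 1.432 TPM held 1194 and 2300 TPM. The other X-linked members were not called between exGut and emGut. Magt1, the gene before Cox7b on the chromosome (chrX:105968084-106011906, chosen after its values were seen), was at 86.75, 76.57, 147.5 and 140.1 TPM in exEndo1 and 24.76, 21.64, 25.01 and 37.93 TPM in Epi. In exEndo1, replicates 3 and 4 were the higher for both genes. Magt1 overlapped between origins in midgut (47.56–103.7 TPM in exMidgut, 33.07–71.02 in emMidgut) and small intestine (44.78–67.79 in exSI, 51.03–57.46 in emSI). It was separate in hindgut (65.08–81.25 in exHindgut, 51.86–55.88 in emHindgut) and colon (59.18–77.55 in exColon, 22.85–31.34 in emColon). Its relation to the Cox7b difference was not tested.

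Ndufa4l2, a paralogue of Ndufa4 known as a target of the hypoxia response, was lower in extraembryonic gut. It was at 36.85, 18.76, 12.17 and 12.73 TPM in emMidgut and at 1.958, 0, 0 and 0 TPM in exMidgut, and at 14.09, 10.79, 3.413 and 3.562 TPM in emHindgut and 0, 2.317, 2.363 and 0.2405 TPM in exHindgut. Every extraembryonic library was below every embryonic library (pooled −2.94, SE 0.446, adjusted p = 0.000425; midgut −3.87, adjusted p = 0.000405; hindgut −2.004, adjusted p = 0.0447). The gene (chr10:127514967-127517154) overlaps Shmt2 on the other strand and the libraries keep no strand. Shmt2 was at 56.51 to 120.3 TPM in emGut (median 77.46) and 35.77 to 85.68 TPM in exGut (median 69.74). Reads from the stretch where the 2 genes overlap cannot be told apart. In exGut, Ndufa4l2 was listed at 0 in libraries that held at least 35.77 TPM of Shmt2. Summed mesenchyme markers, mostly Vim in midgut, and summed muscle markers were also lower in exGut (muscle 26.4–47.36 against 59.96–117.8 TPM). Neural markers were lower in exMidgut than in emMidgut (12.33–26.02 against 37.87–67.54 TPM). The part of these markers in the Ndufa4l2 difference was not tested.

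**Figure D3:**
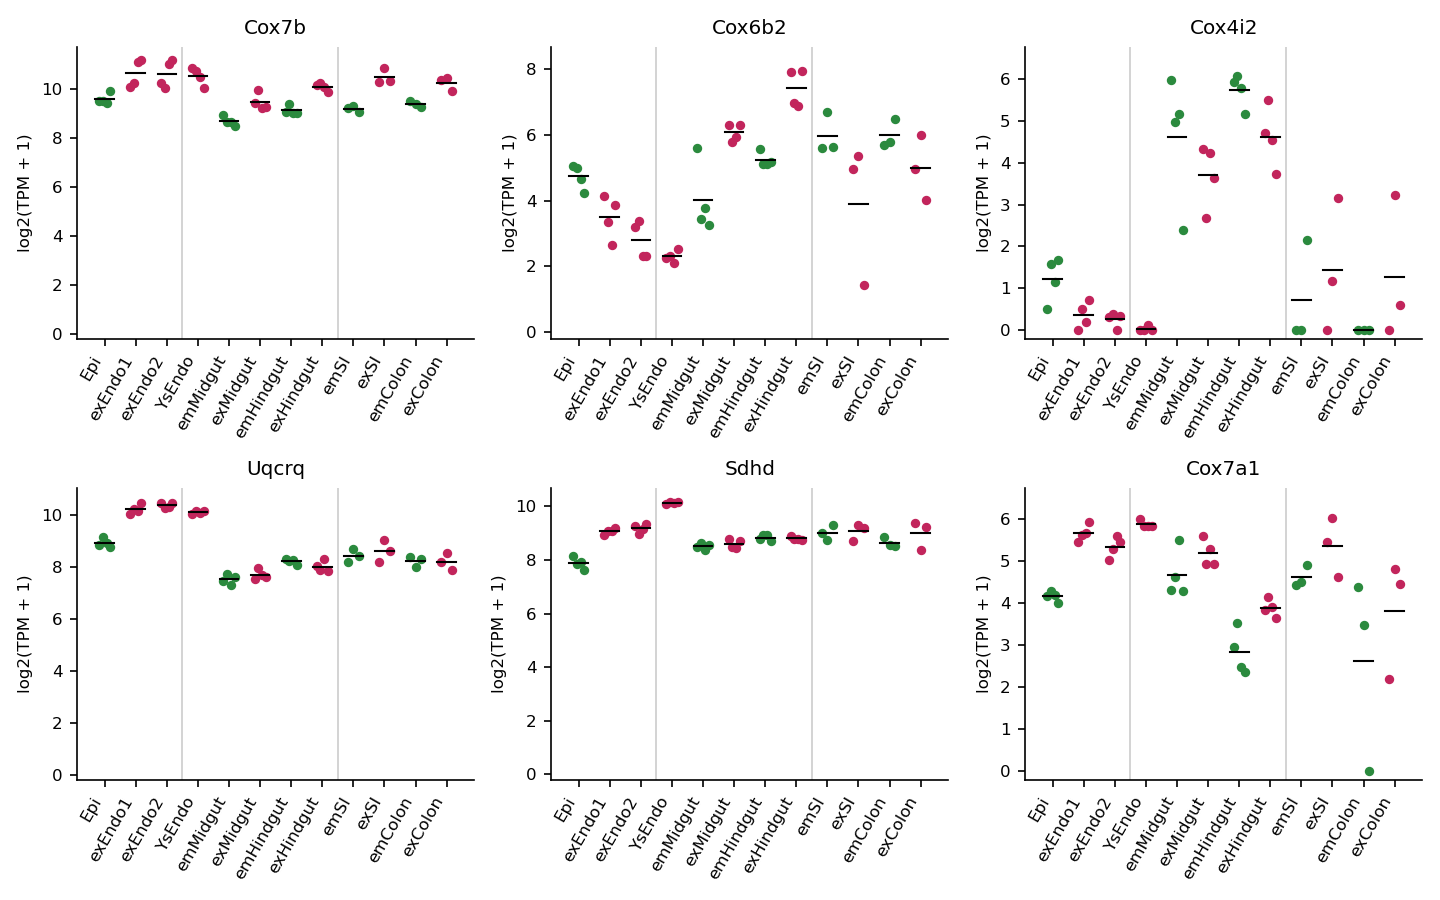
Level of 6 members, Cox7b, Cox6b2, Cox4i2, Uqcrq, Sdhd and Cox7a1, as log2(TPM + 1) in each library of the 12 groups, with GFP+ libraries in green, mCherry+ libraries in crimson and a black bar at the group mean. Cox7b lies higher in mCherry+ than in GFP+ libraries at E6.5 and within each gut region or organ later (for example 924.8 to 1201 against 519.9 to 658.1 TPM in hindgut). Cox6b2 peaks in exHindgut (116.1 to 246.4 TPM), and Uqcrq and Sdhd are higher in YsEndo than in the gut groups.

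From E6.5 to E9.5 the 2 lineages were followed separately, emGut against Epi and exGut against exEndo1. In emGut 22 members were higher and 15 lower (22.7% and 15.5%), with 34% and 15.5% of the 13053 genes tested in these directions and 49.5% in either. Rescaling, which moves the median of all genes from 0.296 to 0.007, turned this balance to 6 higher and 40 lower (all genes 24.6% and 26%). FPKM gave 18 and 21 (all genes 31% and 17.8%), so no direction can be given for the members as a group. In exGut 16 were higher and 36 lower than in exEndo1 (16.5% and 37.1%), against 27.6% and 20.3% of the 12931 genes tested (47.9% in either). Rescaling gave 11 and 46 (all genes 23.9% and 25.2%). The nuclear sums were 0.968 ± 0.087 of Epi in emGut and 0.826 of exEndo1 in exGut. Of the 13 mitochondrial transcripts 7 were lower in exGut, among them mt-Co2 (1411 ± 120.3 against 2661 ± 299 TPM, −0.91, adjusted p = 2.57e-06), mt-Nd1 (4950 ± 845.7 against 9915 ± 2725 TPM, −0.98, adjusted p = 0.000229) and mt-Nd4 (1101 ± 105.5 against 2159 ± 640.2 TPM, −0.93, adjusted p = 0.000121). In emGut mt-Co2 was lower by 0.46 (adjusted p = 0.0485) and mt-Nd6 higher by 0.54 (adjusted p = 0.0243; 0.205 and adjusted p = 0.386 after rescaling).

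Cox4i2 was among the largest changes in both lineages. It was at 0.4232, 1.997, 1.231 and 2.211 TPM in Epi, and at 61.54, 30.24, 34.83 and 4.268 TPM in emMidgut and 59.59, 65.55, 53.78 and 34.93 TPM in emHindgut (3.94, adjusted p = 3.97e-05). In exEndo1 it was between 0 and 0.6515 TPM and in exGut between 5.427 and 44.15 TPM (3.81, adjusted p = 4.34e-06). It still made up at most 4.231% of the summed Cox4 pair in any emHindgut library. Cox7a2l was higher at E9.5 in both lineages as well, at 359.2 ± 117.4 against 166.2 ± 12.47 TPM in the embryonic lineage (1.04, adjusted p = 0.00116) and 361.7 ± 74.86 against 154.7 ± 17.81 TPM in the extraembryonic lineage (1.20, adjusted p = 2.08e-05). Ndufa4, counted here with complex IV, was at 2411 ± 177.8 TPM in exEndo1 and 1127 ± 181.7 TPM in exGut (−1.11, adjusted p = 5.22e-06), and at 1427 ± 205.9 and 1053 ± 161.8 TPM in Epi and emGut (−0.44, adjusted p = 0.0115).

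The change over time differed between lineages for 21 members by the interaction in limma, 4 with the larger rise or smaller fall in the extraembryonic lineage and 17 the reverse, while 10.6% and 16.8% of the 14089 genes tested were called in these directions (27.5% in either). The share of members called was near that of all genes, and rescaling changed the split to 7 and 9 (all genes 13.9% and 14%). Of the 17, 10 were nuclear complex I members, among them Ndufb11 (−1.01), Ndufb4 (−0.83), Ndufb6 (−0.81) and Ndufs5 (−0.76). Uqcrq (−1.32, adjusted p = 0.000166) and Sdhd (−1.16, adjusted p = 4.78e-06) had the largest negative differences. For both, exEndo1 lay above Epi at E6.5 and the gut groups of both origins overlapped at E9.5. Uqcrq was at 172.8, 209.9, 156.6 and 190.6 TPM in emMidgut and 308.1, 295.9, 301.9 and 263 TPM in emHindgut, next to the exGut values of 180.1 to 308.5 TPM. Sdhd was at 357.1, 396.8, 331.8 and 376.2 TPM in emMidgut and 439.9, 491.5, 481 and 415.4 TPM in emHindgut, and at 344.3 to 473.6 TPM in exGut. Cox6b2 had the largest positive difference (3.36, adjusted p = 0.000302), followed by Atp5g2 (0.599), Ndufs4 (0.47) and Ndufa7 (0.47).

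**Figure D4:**
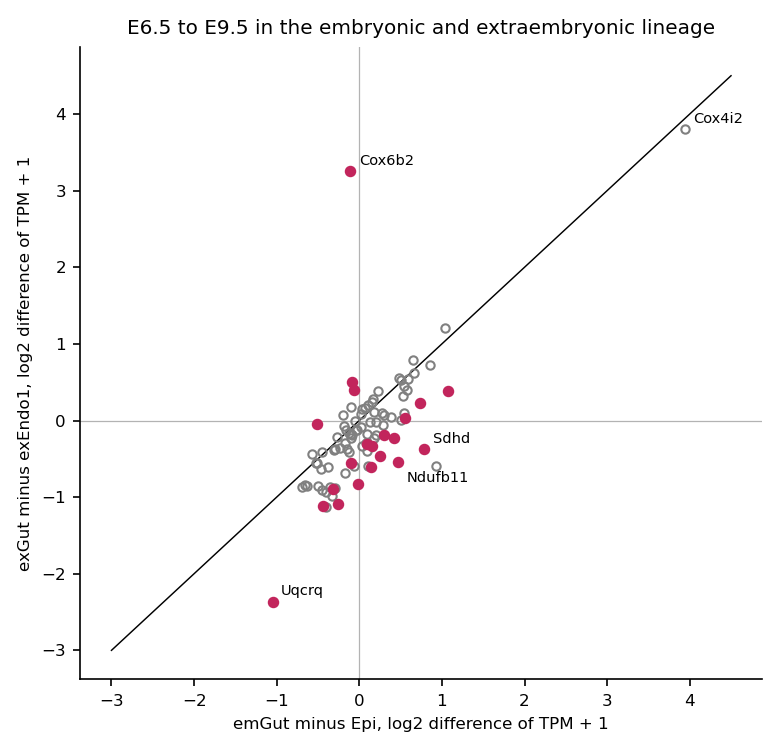
Change in mean log2(TPM + 1) from Epi to emGut (x axis) and from exEndo1 to exGut (y axis) for each member tested, with members whose change differed between lineages (adjusted p under 0.05) in crimson and the diagonal marking equal change. Cox6b2 lies far above the diagonal (difference 3.36), Uqcrq, Sdhd and Ndufb11 lie below it (−1.32, −1.16 and −1.01), and Cox4i2 is high in both lineages.

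By E13.5 the embryonic gut held more nuclear-encoded subunit transcript than at E9.5. The sort and the pooling of embryos changed with the stage, and their part was not tested. In emE13 against emGut 56 members were higher and 5 lower, 57.7% and 5.15% of the 97, against 5.6% and 22.8% of the 13017 genes tested (28.4% in either direction). The members' median was 0.42 and that of all genes −0.462. Rescaling brings the latter to −0.2 and gave 71 higher and 2 lower (all genes 9.76% and 11.4%). The nuclear sum was 1.43 ± 0.11 times that of emGut in TPM and 1.74 times after rescaling, whereas the mitochondrial sum was 0.973 times in TPM and 1.18 times after rescaling. Complex I had 27 of 35 nuclear members higher, complex V 12 of 17, complex IV 11 of 16 tested with 2 lower, complex III 4 of 8 and complex II 1 of 4.

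Sdhb, the iron-sulfur subunit of complex II, was at 696.9 ± 77.35 TPM in emE13 (n = 6) and 349.4 ± 41.9 TPM in emGut (n = 8; 0.996, adjusted p = 6.18e-06), and the groups were separate. Ndufs8, a core iron-sulfur subunit of complex I, was at 402.2 ± 82.96 against 166.2 ± 36.07 TPM (1.27, adjusted p = 7.23e-05). Ndufa8 was at 342.5 ± 37.2 against 151.8 ± 20.07 TPM (1.17, adjusted p = 5.78e-06). Atp5g1 (852.9 ± 95.93 against 392.3 ± 53.67 TPM, 1.12, adjusted p = 3.91e-06) and Cox7c (2568 ± 213.1 against 1303 ± 243.8 TPM, 0.996, adjusted p = 1.63e-05) showed the same pattern. The largest fall was that of Cox4i2, listed at 0 in 5 of the 6 emE13 libraries and at 3.482 TPM in the remaining emSI library (−4.82, adjusted p = 1.63e-05). Among mitochondrial transcripts mt-Nd6 (−0.56, adjusted p = 0.00133), mt-Nd5 (−0.43, adjusted p = 0.0191) and mt-Nd4 (−0.45, adjusted p = 0.0414) were lower and mt-Co3 was higher (0.295, adjusted p = 0.0477). After rescaling the falls were −0.252 (adjusted p = 0.122), −0.125 (adjusted p = 0.527) and −0.141 (adjusted p = 0.541), so none of the 3 passed, and the call on mt-Nd4 was also lost in 11 of 14 fits that leave out a library.

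Extraembryonic Trp53-knockout cells at E13.5 differed from wild-type embryonic cells of the same organs in 2 members, both higher in exE13, against 0.537% of the 12483 genes tested higher and 0.753% in either direction (14 members under 0.05 unadjusted). These were Cox7b and mt-Atp8, which was at 4985 ± 305.3 against 3762 ± 531.5 TPM (0.415, adjusted p = 0.0473); the call on mt-Atp8 was lost in 10 of 12 fits that leave out a library and after rescaling (0.32, adjusted p = 0.246). All 13 mitochondrial members were higher in exE13, and mt-Cytb (0.53, adjusted p = 0.0576) and mt-Co3 (0.43, adjusted p = 0.0521) came next. Both passed in limma with the replicate number as a block (adjusted p = 0.0156 and 0.0197). The mitochondrial sum was 39720 ± 5848 against 30450 ± 5567 TPM (n = 6), with 34480–38370 TPM in exSI and 26770–33380 TPM in emSI, which did not overlap. In colon the sums were 38740, 38250 and 51230 TPM in exColon and 27630, 26290 and 40550 TPM in emColon, which overlapped. The nuclear sums had a ratio of 0.998 ± 0.15. In exSI against emSI 1 member, Cox7b, passed (0.536% of all genes higher and 0.229% lower, 0.765% in either direction, 9 members under 0.05 unadjusted), and in exColon against emColon 0 passed by limma (0.233% of all genes higher and 0.0448% lower, 0.278% in either direction, 13 members under 0.05 unadjusted). Summed mesenchyme markers were lower in the exE13 libraries (4.651–61.38 against 96.45–487.8 TPM), and their part was not tested. Colon and small intestine differed in 1 member, Cox5a of complex IV, at 647 TPM in colon and 895 TPM in small intestine (−0.46, adjusted p = 0.039; 0.609% of all genes higher and 0.833% lower, 1.44% in either direction, 14 members under 0.05 unadjusted), and 0 members passed in 9 of the 12 fits that leave out a library.

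Other genes of mitochondrial energy metabolism were read as lists beside the subunits. The glycolysis list had the reverse balance of the subunits in several comparisons, but not in all. In exEndo1 against exEndo2 it went with the subunits, with Tpi1 (−0.759), Aldoa (−0.719) and Gapdh (−0.58) among those lower and Slc16a3 (1.571) higher. In exEndo1 against Epi 17 of 19 glycolysis genes (gene IDs, of 18 symbols) were lower and 1 higher, against 27.5% and 35.4% of all genes tested, with Slc2a3, a glucose transporter, higher (786.3 against 50.98 TPM, 3.88), and Slc16a3, a lactate exporter (−2.84), and Gapdh (1427 against 4244 TPM, −1.54) lower. In exGut against YsEndo 13 were higher and 2 lower (all genes 46.9% and 15.3%), led by Slc16a3 (5.42) and hexokinase Hk2 (2.85). In exGut against emGut the subunits had no clear balance, with 2 higher and 1 lower. There, 4 glycolysis genes were lower and none higher, against 1.98% and 1.63% of all genes tested. These were Pfkp (−2.36), Gapdh (2330 against 3626 TPM, −0.635), Eno1 (−0.56) and Pkm (−0.55). In hindgut against midgut 1 was higher and 8 lower (all genes 16.4% and 17.6%), among them the glucose transporter Slc2a1 (270.8 against 645.4 TPM, −1.23). In emE13 against emGut 12 were lower and none higher (all genes 22.8% and 5.6%).

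Genes of the TCA cycle, which feeds the chain, followed the subunits in exGut against YsEndo, where 10 of 13 were lower and 1 higher (all genes 15.3% and 46.9%). Suclg1 of succinyl-CoA ligase was at 297.6 against 763.6 TPM (−1.38), and malate dehydrogenase Mdh2 was lower by 1.12 on the log2 scale. In exEndo1 against Epi 4 of 13 were higher and none lower, where 35.4% of all genes tested were higher. Of 78 subunits of the mitochondrial ribosome, which makes the 13 mitochondrial proteins, 33 were higher and 1 lower in hindgut than in midgut, where 16.4% and 17.6% of all genes tested were. In emE13 against emGut 30 were higher and 1 lower (all genes 5.6% and 22.8%), and in exGut against YsEndo 15 were higher and 30 lower (all genes 46.9% and 15.3%). In exEndo1 against Epi 13 were higher and 22 lower (all genes 35.4% and 27.5%). Among 46 assembly factors tested, 17 were higher and 4 lower in exEndo1 than in Epi, and the share that rose was near that of all genes. In exGut against YsEndo 10 assembly factors were higher and 8 lower, where 46.9% of all genes tested were higher and 15.3% lower. The complex I factor Nubpl was higher by 1.86, and the copper chaperone Cox17 was at 244.1 against 667.5 TPM (−1.46). Lyrm7, a complex III factor (4.471 against 1.217 TPM, 1.355), and Cox14, a complex IV factor (107.7 against 78.8 TPM, 0.44), were the factors called between exGut and emGut.

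Cycs, the cytochrome c that carries electrons between complexes III and IV, was at 90.65 TPM in exGut, 273.1 TPM in YsEndo (−1.63) and 244.5 TPM in exEndo1 (−1.475). It was higher in hindgut than in midgut (127 against 71.12 TPM, 0.83). Cyct, known as its testis form, was at 38.79 TPM in Epi and 2.79 TPM in exEndo1 (−3.95). Among genes of mitochondrial DNA maintenance and biogenesis, the DNA polymerase Polg stood out in exEndo1, at 131.9 TPM against 11.23 TPM in Epi (3.46) and 23.13 TPM in exGut (−2.50), and Esrra, a nuclear receptor of mitochondrial genes, was at 20.38 against 2.712 TPM in exEndo1 and Epi (2.52). In hindgut, Slirp (0.91), Tfam (0.54), Nrf1 (0.47) and Twnk (0.41) were higher than in midgut and no gene of that list was lower. Each value named passed at adjusted p under 0.05 in limma.

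**Figure D5:**
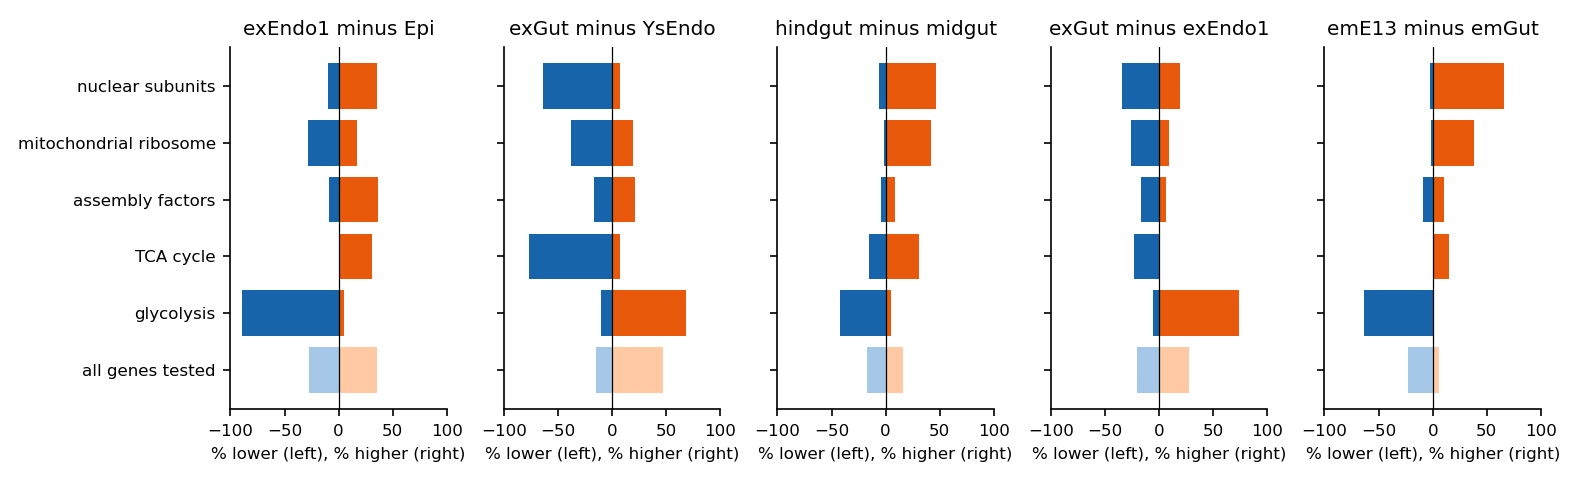
Percent of genes in each list that were lower (blue, left) or higher (orange, right) at adjusted p under 0.05 in 5 comparisons, for the nuclear subunits, the mitochondrial ribosome, assembly factors, the TCA cycle, glycolysis and, in pale bars, all genes tested. In exEndo1 against Epi glycolysis genes are mostly lower (17 of 19) beside subunits that are more often higher (31 of 97 with the mitochondrial ones), and in emE13 against emGut subunits rise (56 of 97) where 12 of 19 glycolysis genes fall.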

How the data were processed

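Per the labels and the methods of the study, RNA of dissected or sorted cells was amplified from poly(A) by a low-input protocol without strand information. The submitters' processing notes name cutadapt 4.1, STAR 2.7.9a and StringTie 2.0.6 on mm10. The deposited files give for every gene the coverage, FPKM and TPM as the authors' StringTie run computed them. No read counts were used here, and the depth given was recovered from the ratio of coverage to FPKM. Rows of a gene ID were summed. Gene types came from GENCODE vM21 and promoters from RefSeq; 17 of the 84 nuclear members had no promoter entry.

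Groups were those of the labels. Tests used limma 3.58.1 in R 4.3.3 on log2(TPM + 1) with a trended prior, over protein-coding genes outside the Y chromosome that exceeded 1 TPM in 4 or more libraries (3 or more for E13.5 fits), with Benjamini-Hochberg adjustment over all genes tested and a threshold of 0.05. Processed pseudogenes are not among the genes of the files, so reads shared with such copies of the subunits cannot be assessed, and 22 nuclear members overlap a gene above 1 TPM on the other strand, while 7 mitochondrial members overlap another gene. The fits were checked on simulated data. Replicate numbers were taken as pairs for exEndo1 and exEndo2, whose same-numbered libraries deviated together (r from 0.167 to 0.402 over 4 pairs). No other groups met that measure. The study cut midgut and hindgut from the same embryos and split each E13.5 intestine into colon and small intestine. At E9.5 and E13.5 it sorted mCherry+ cells and their embryonic control from tissue of lineage-traced embryos. Libraries of both origins can therefore share embryos as well, and the labels do not say which do. Eif2s3y was at 0.6852 TPM in exMidgut replicate 1, at 0 TPM in exHindgut replicate 1 and at 14.92 to 87.62 TPM in the other exGut libraries. Without a replicate block, fits between origins and fits pooled over regions or organs took all libraries as independent. Their p-values do not allow for shared embryos. Members were named by rule as the mitochondrial genes, the tissue-restricted isoforms with their partners, the most abundant of each complex and up to 5 with the largest rise and fall in each main comparison, with up to 4 genes of each other list. Members named beyond this, as in hindgut against midgut or between lineages, were chosen after their values were seen. Members and lists were chosen with earlier results of these data known. Alternatives were a pseudocount of 0.1, no filter, quantile and median-ratio scaling, FPKM, no trend, all gene types, mitochondrial genes left out of the total, covariates or replicate blocks, and leaving out each library.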

Additional observations from a re-analysis of the deposited data

Results flagged for a closer look

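The change from E6.5 to E9.5 differed between the embryonic and extraembryonic lineages for 21 members by a test of the difference itself, where 27.5% of all genes tested did.

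In groups of 4 libraries, the values of 13 items were searched for a library set apart from the other 3 of its group, which gave 7 of 104 groups, and chance alone gives about 1 in 20. Cox6b2 was at 46.42 TPM in emHindgut replicate 1 and at 47.11 TPM in emMidgut replicate 1, both the highest of their group. Cox7b was at 658.1 TPM in emHindgut replicate 2. Ndufa4l2 was at 1.958 TPM in exMidgut replicate 1, where the other exMidgut libraries were at 0. Cox7a1 was at 62.33 TPM in YsEndo replicate 1 and Cox7a2 at 695.5 TPM in exMidgut replicate 4. The summed nuclear members reached 41940 TPM in exHindgut replicate 1.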

How the results depend on the processing

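Of 1431 values of members named by the rule under the alternatives, 1289 kept their direction and side of the threshold, 134 no longer passed and 8 turned, all 8 with median-ratio rescaling. In exGut against YsEndo it put Ndufa7 at 0, Cox7a2l at −0.085, Atp5g2 at −0.086, mt-Co1 at −0.247, mt-Nd3 at −0.098 and mt-Cytb at −0.291. It put Cox6b1 at −0.036 in emGut against Epi and mt-Cytb at 0.057 in YsEndo against exEndo2. The causes were not tested. Counts of members called moved by more than 1.5 times as follows. exGut against emGut gave 7 with the region as covariate. exMidgut against emMidgut gave 1 without the filter and 1 without the trend. exHindgut against emHindgut gave 2 with a pseudocount of 0.1, with quantile scaling and without the trend, and 9 with the replicate block. exEndo1 against exEndo2 gave 1 without the filter, 3 with rescaling and 1 without the trend. Hindgut against midgut gave 27 without the trend. exE13 against emE13 gave 1 with a pseudocount of 0.1, without the filter, with rescaling, in FPKM and without the organ covariate, 4 with quantile scaling and with the replicate block, and 0 without the trend (3 under 0.05 unadjusted). exColon against emColon gave 1 with the replicate block, and exSI against emSI 0 without the filter or the trend (6 and 1 under 0.05 unadjusted). Colon against small intestine gave 2 with quantile scaling and with the replicate block and 0 with rescaling, in FPKM and without the trend (13, 15 and 5 under 0.05 unadjusted).

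Rescaled ratios of nuclear sums were 1.08 in exEndo1 to Epi, 0.478 in exGut to YsEndo, 0.83 in emGut to Epi, 1.46 in YsEndo to exEndo2 and 1.74 in emE13 to emGut (1.65 in FPKM). Those of mitochondrial sums were 0.64 in exGut to YsEndo and 1.16 in YsEndo to exEndo2.

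Leaving out 1 library gave 3 to 5 calls in exGut against emGut (5 without emMidgut replicate 4), 3 to 4 in exMidgut, 2 to 5 in exHindgut (2 without emHindgut replicate 1), 31 to 42 in exEndo1 against Epi, 0 to 6 in exEndo1 against exEndo2, 59 to 66 in exGut against YsEndo, 39 to 46 in hindgut against midgut, 32 to 39 in emGut against Epi, 47 to 52 in exGut against exEndo1, 40 to 59 in YsEndo against exEndo2, 1 to 4 in exE13 against emE13 (4 without emColon replicate 3), 0 to 1 in colon against small intestine, 55 to 62 in emE13 against emGut and 20 to 27 in the test between lineages. The replicate block changed no other count by over 1.5 times. Outside exEndo1 with exEndo2, same-numbered libraries correlated at −0.167 to 0.196. Each library correlated best with its own number in exColon with emColon and in exSI with emSI. The study sorted both origins from organs of lineage-traced embryos, but the labels do not say whether equal numbers mark the same embryo. Levels near 0 TPM rest on few reads.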
